A study of Mus musculus with 10 samples.

Results

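Macrophages of the small intestine were compared with macrophages grown in culture from bone marrow (bone marrow-derived macrophages, BMDM) by RNA level on Illumina mouse bead arrays, on which labelled RNA binds to probes for single transcripts. The comparison rested on 3 of the 10 arrays of the study: 2 of small intestinal macrophages and 1 of BMDM. The other arrays held peritoneal, adipose tissue, alveolar (lung), Kupffer (liver) and splenic macrophages. All cells were untreated and came, per the labels, from male C57BL/6 mice of 8 to 10 weeks. BMDM were grown for 7 days in M-CSF, a growth factor of macrophages. No group carried a transgene or a deletion. The labels do not say how the intestinal cells were isolated, nor whether the 2 intestinal arrays came from separate animals, so p-values measure only the spread between arrays, which may be technical. BMDM had 1 array and therefore no spread of its own; it was assumed to vary like the groups with 2 arrays.

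A probe was called detected when its signal exceeded the array's negative controls with a detection p under 0.01. Of 46632 probes, 14122 were detected on at least 1 of the 3 arrays. With 1 probe kept per gene, these gave 11275 transcripts, out of 12845 detected anywhere in the study, and this set was described: 8211 had a gene symbol and 3064 were probes without one. At the edge of the threshold, 89 transcripts had a lowest detection p of 0.00998 and a median highest level of 6.19, and 105 had 0.0106 and 5.84. Levels are background-corrected, normalised log2 intensities throughout, so a difference of 1 is a 2-fold difference, and levels of different genes are not compared.

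The arrays differed in ways that bear on the comparison. Both intestinal arrays belonged to the brighter arrays of the study (median raw signal 156.9 and 158.7) and the BMDM array to the dimmer ones (107.9); 26.2% of probes were detected on each intestinal array and 23.7% on the BMDM array. Only the peritoneal pair spanned the brighter and dimmer arrays, so brightness and cell type could be separated through that pair alone. The BMDM array also went against its label in sex-linked transcripts. Xist, the RNA that silences an X chromosome in female cells, read 4.85 and 5.00 in the intestine, not detected, and 9.69 in BMDM. Eif2s3y, a gene of the Y chromosome, read 8.30 and 8.07 in the intestine and 4.80, not detected, in BMDM. Kdm5d, also on the Y chromosome, was detected on both intestinal arrays and not on the BMDM array, and Uty lay near the detection floor on all 3. Of 218 detected transcripts of the X chromosome, 35 were higher and 50 lower in the intestine by the call defined below. Over all 11275 transcripts the shares were 24.6% and 17.6%. The median difference was -0.10 for transcripts of the X chromosome against 0.03 for autosomal ones. The part of this mismatch in other results was not tested.

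Intestinal macrophages live beneath an epithelium exposed to food and microbes. They are replenished to a large extent from blood monocytes, engulf dying cells and bacteria, present antigen on MHC class II molecules, and are known for making the anti-inflammatory cytokine IL-10. BMDM arise in a dish from marrow progenitors that M-CSF drives to divide and to differentiate, without the signals of a tissue. MHC class II genes are controlled together by CIITA, a coactivator that does not bind DNA itself but is recruited by factors on the X and Y boxes of their promoters. Interferon-stimulated genes are instead switched on through interferon-stimulated response elements (ISRE).

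Promoters of 4 genes on which the results below turn are shown, 2 of MHC class II genes that were higher in the intestine and 2 of interferon-stimulated genes that were higher in BMDM. Each is the 250 bases before the RefSeq start of the gene (build GRCm38.p6), 5′ to 3′ on the gene's strand. The first is H2-Aa (chr17:34287824-34288073, minus strand), with the Y box CTGATTGG and the X2 box TGACGTCA in capitals. The second is H2-Eb1 (chr17:34305617-34305866, plus strand), with the X box AGNAACNGA and the Y box in capitals.
H2-Aa: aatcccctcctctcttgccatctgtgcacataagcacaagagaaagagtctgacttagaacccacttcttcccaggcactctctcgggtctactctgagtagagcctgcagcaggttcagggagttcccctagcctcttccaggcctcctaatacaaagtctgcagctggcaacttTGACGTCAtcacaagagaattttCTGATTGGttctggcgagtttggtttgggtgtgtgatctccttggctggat
H2-Eb1: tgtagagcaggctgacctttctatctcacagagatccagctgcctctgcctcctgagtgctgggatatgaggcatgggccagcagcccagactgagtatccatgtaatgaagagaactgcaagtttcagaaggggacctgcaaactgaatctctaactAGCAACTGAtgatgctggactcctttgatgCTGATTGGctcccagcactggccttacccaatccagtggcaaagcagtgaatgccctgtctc
The ISRE core TTTCNNTTT on either strand is in capitals in Ifit3 (chr19:34583279-34583528, plus strand) and Rsad2 (chr12:26456453-26456702, minus strand).
Ifit3: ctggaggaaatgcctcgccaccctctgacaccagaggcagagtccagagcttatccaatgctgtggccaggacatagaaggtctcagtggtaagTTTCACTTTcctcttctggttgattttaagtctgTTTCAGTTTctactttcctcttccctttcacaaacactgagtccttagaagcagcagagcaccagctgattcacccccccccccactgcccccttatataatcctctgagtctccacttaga
Rsad2: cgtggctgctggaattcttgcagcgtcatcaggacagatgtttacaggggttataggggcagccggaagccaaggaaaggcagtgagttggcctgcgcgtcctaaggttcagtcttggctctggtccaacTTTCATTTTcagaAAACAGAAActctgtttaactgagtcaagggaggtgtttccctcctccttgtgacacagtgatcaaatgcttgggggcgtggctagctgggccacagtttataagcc
The spelled motifs were searched on both strands and did not overlap in these promoters. The Y box occurred in 3.83% of 32851 mouse promoters of the same length, the X box in 4.42%, the X2 box in 1.55% and the ISRE core in 9.37%. Among 11 MHC class II list genes with a promoter sequence, 4 held the Y box (H2-Aa, H2-Eb1, H2-Eb2 and H2-Oa), 3 the X box (H2-DMb1, H2-Eb1 and H2-Eb2) and 1 the X2 box (H2-Aa). Of 17 interferon list genes with a promoter sequence, 11 held the ISRE core. Not all of these were higher in BMDM: Gbp2, Ifi44, Isg15 and Oas1a were not on the array, and Ifit1 was not detected. Stat2 did not pass, and Gbp3 was higher in the intestine. The spellings were chosen with the promoters in view, and a match describes letters, not binding.

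Intestinal macrophages and BMDM differed in 4763 of the 11275 transcripts (42.2%), by at least 2-fold and with a Benjamini-Hochberg adjusted p under 0.05 in limma, a linear model fitted over all 10 arrays. Of these, 2774 (24.6%) were higher and 1989 (17.6%) lower in the intestine, a split of 58.2% to the higher side that moved to 83.1% with the arrays scaled to their medians (4297 higher, 872 lower). Transcripts with a gene symbol made up 1783 of the higher and 1494 of the lower ones. Many calls came from transcripts detected in 1 group only, which were included through that group. Of the higher ones 1534 were not detected in BMDM, and of the lower ones 633 were not detected on either intestinal array. Calls rested on the normalised values also where a group was not detected, so for these transcripts a 2-fold difference is not assured. With BMDM set at its lowest detected level instead, Kdm5d, called higher, differed by -0.005 and the eosinophil marker Prg2, also called higher, by 0.57. How many calls would fall short in this way was not counted. Among the 7842 transcripts detected on all 3 arrays, 1240 (15.8%) were higher and 1254 (16%) lower. On the same normalised values, differences of at least 8-fold numbered 483 higher and 218 lower.

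The intestinal replicates were close, with a standard deviation of 0.22 for the difference between them over all members, and 9 members differed at least 2-fold between them (0.0798%). The peritoneal pair, which spanned brighter and dimmer arrays, differed more (0.51), and 615 members (5.45%) differed at least 2-fold. The brighter peritoneal array was at least 2-fold above the dimmer one in 3.46% of the transcripts called higher in the intestine, against 3.03% of all members. It was at least 2-fold below the dimmer one in 3.72% of the transcripts called lower in the intestine, against 2.42% of all members. With brightness as a term in the model, 2730 were higher and 2080 lower, of which 2277 and 1617 were also called without it.

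**Figure D1:**
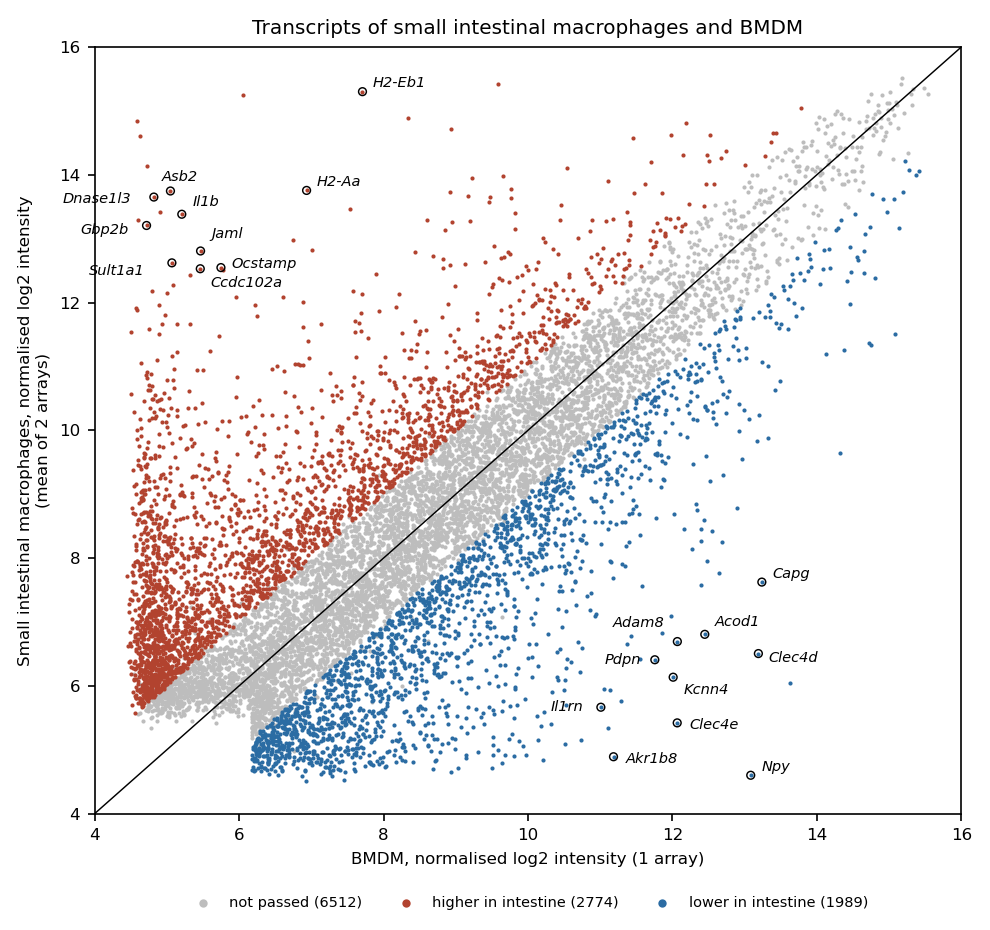
Level of each of the 11275 transcripts in BMDM (x axis, 1 array) and in small intestinal macrophages (y axis, mean of 2 arrays), both as normalised log2 intensity. Red points are the 2774 called higher and blue the 1989 called lower in the intestine, grey points did not pass, the line marks equal levels, and the 10 named genes with the largest differences on each side are circled.

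With undetected levels taken at a bound, the largest difference in favour of the intestine among named genes was in RNA of H2-Eb1, a gene for an MHC class II beta chain. It read 15.38 and 15.23 on the intestinal arrays and 7.71 on the BMDM array, a 193-fold difference (log2 7.59, SE 0.275, limma adjusted p = 5.71e-06). H2-Aa, the alpha chain of the MHC class II molecule I-A, read 13.78 and 13.73 against 6.93 and differed 113-fold. Both genes were detected in BMDM, so these are measured folds. Asb2, a subunit of a ubiquitin ligase that targets filamins, and Dnase1l3, a secreted nuclease that digests DNA of dying cells, were not detected in BMDM. Asb2 read 13.72 and 13.77 against 5.05, at least 190-fold higher, but the splenic array (14.555) lay above both intestinal arrays. Dnase1l3 read 13.65 on both arrays against 4.82, at least 178-fold higher. A bound of this kind sets the undetected array at its lowest detected level, here 6.17 for BMDM.

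Il1b, the inflammatory cytokine interleukin 1 beta, read 13.44 and 13.33 in the intestine and 5.21, not detected, in BMDM, at least 148-fold higher (limma adjusted p = 2.65e-06). The Kupffer array (13.74) lay above both intestinal arrays for Il1b. Gbp2b, a guanylate-binding GTPase, stood at 13.21 on both intestinal arrays and was at least 131-fold higher. Jaml, an adhesion molecule of leukocytes, Sult1a1, a sulfotransferase, Ocstamp, a membrane protein known from osteoclasts, and Ccdc102a made up the rest of the 10, at least 82.0-fold to at least 99.4-fold higher. None of these 4 was detected in BMDM, and all 4 lay between 12.51 and 12.89 on both intestinal arrays. For Sult1a1 the adipose arrays (13.08 and 13.09) lay above both intestinal arrays. For Ocstamp the brighter peritoneal array read 1.20 above the dimmer one. Of the 20 largest differences in favour of the intestine before bounds, 7 belonged to probes without a gene symbol.

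Among named genes higher in BMDM, the largest difference was in Npy, the signalling peptide neuropeptide Y. It read 4.67 and 4.53 on the intestinal arrays, not detected, and 13.08 in BMDM, at least 150-fold lower in the intestine (limma adjusted p = 5.75e-06). Npy was also low in the other 5 tissues, whose means ranged from 4.49 to 5.00. Clec4d and Clec4e, neighbouring C-type lectins that sense fungal and mycobacterial glycolipids, followed. Clec4d read 6.77 and 6.24 against 13.19, 103-fold lower, and Clec4e 5.38 and 5.46 against 12.07, at least 74.3-fold lower. Kcnn4, a calcium-activated potassium channel, was 58.7-fold lower, and its level dropped by 1.19 on the log2 scale from the dimmer to the brighter peritoneal array. Acod1, the enzyme that makes itaconate, was 49.9-fold lower.

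Capg, an actin-capping protein, read 7.62 on both intestinal arrays and 13.24 in BMDM, 49.0-fold lower. Adam8, a membrane metalloprotease, was 41.5-fold lower and Pdpn, the mucin-like podoplanin, 40.7-fold lower. Il1rn, the antagonist of the interleukin 1 receptor, opposed Il1b: it read 5.36 and 5.97 in the intestine, detected on 1 of the 2 arrays, and 11.01 in BMDM, 40.6-fold lower. Akr1b8, an aldo-keto reductase, was not detected in the intestine and was at least 40.3-fold lower. Of the 20 largest differences in favour of BMDM before bounds, 5 belonged to probes without a gene symbol.

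The MHC class II and antigen presentation list was higher in the intestine in 12 of its 15 detected members, with a median difference of 4.40 (4.32 at the bounds) against 0.13 over all members. For this list and those below, the shares over all members were 24.6% higher and 17.6% lower. Ciita, the coactivator of these genes, read 11.78 and 11.99 in the intestine and 4.59, not detected, in BMDM, at least 52.4-fold higher (limma adjusted p = 5.75e-06). Another probe for Ciita did not show this (difference 0.24). Cd74, the invariant chain that guides class II molecules, read 15.54 and 15.30 against 9.59 and was 57.0-fold higher. H2-Ab1, the beta chain of I-A, read 14.74 and 14.69 against 8.94 and was 54.9-fold higher. On these probes all 3 were separated from BMDM by far more than the distance between the intestinal arrays, which were both brighter arrays. Between the brighter and the dimmer peritoneal array the difference was -0.66 for Ciita, -0.26 for Cd74 and -0.81 for H2-Ab1. The promoters of H2-Eb1 and H2-Aa printed above belong to this group.

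The peptide-loading genes H2-DMa and H2-DMb1 were 22.7-fold and 20-fold higher, and H2-Oa and H2-Ob, which restrain peptide loading, at least 27.4-fold and at least 7.43-fold higher; another probe for H2-Ob differed in sign (-0.79). Ifi30, a thiol reductase of the antigen-processing compartment, was 4.41-fold higher. Cd86, a costimulatory ligand for T cells, read 12.77 and 12.70 against 8.69, 16.5-fold higher, but another probe for it stayed under 2-fold (difference 0.34). The other 3 members did not pass: Cd80, a related ligand (difference 0.03, 95% interval -0.42 to 0.48), Cd40, a receptor for T cell help (0.38, -0.05 to 0.82), and Ctss, the protease cathepsin S (0.34, -0.27 to 0.94). H2-Eb2, a less used class II gene, was at least 5.50-fold higher.

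**Figure D2:**
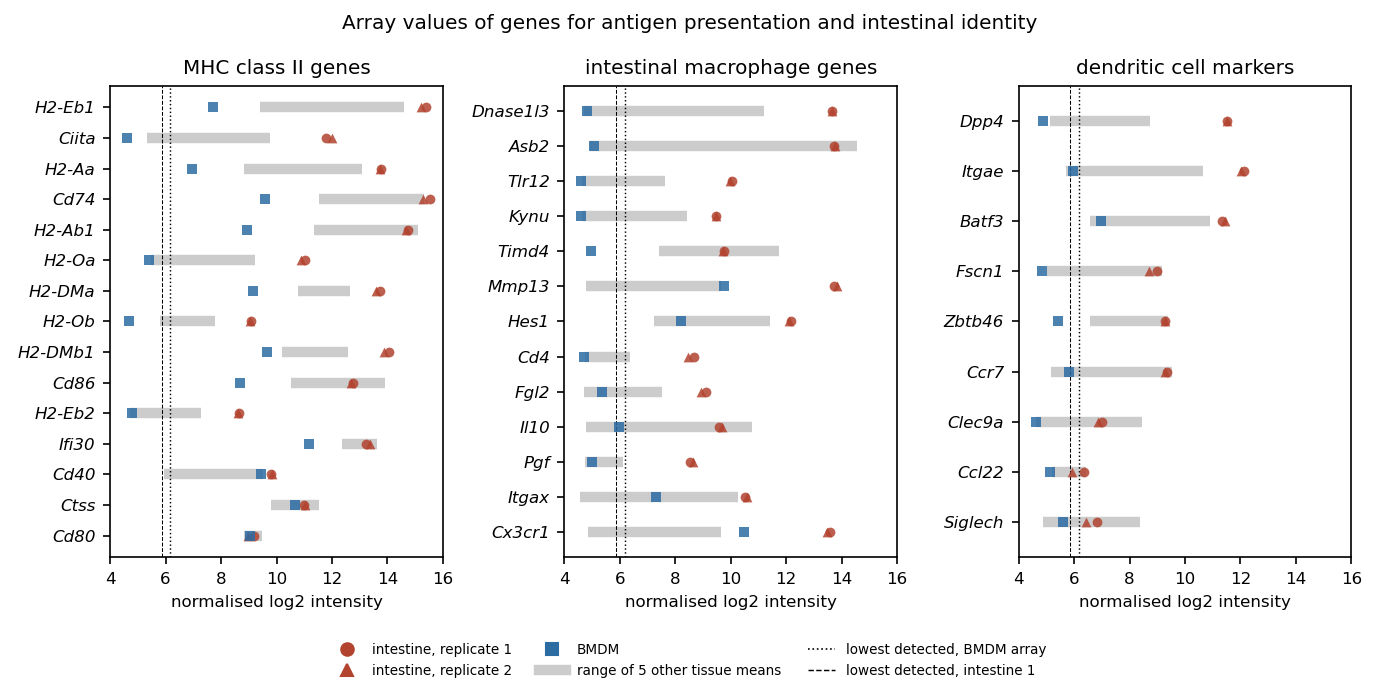
Normalised log2 intensity (x axis) of MHC class II, intestinal macrophage and dendritic cell marker genes on the 2 intestinal arrays (red) and the BMDM array (blue). Grey bars span the means of the 5 other tissues, and vertical lines mark the lowest detected level of the BMDM array (6.17) and of intestinal replicate 1 (5.86); Ciita, H2-Oa and H2-Eb2 lay below the floor in BMDM and above the range of the other tissues in the intestine.

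Markers of dendritic cells, which also carry MHC class II, were higher on the intestinal arrays too. Of 11 dendritic cell markers on the array, 9 were detected, each on both intestinal arrays and Batf3 also on the BMDM array, and all 9 were called higher. The 8 detected in the intestine alone were included through the group where they were high. The median difference of the 9 was 3.87, and 3.11 at the bounds. Their summed signal was 12000 and 11800 on the intestinal arrays and 452 on the BMDM array. Dpp4, a peptidase of the cell surface, stood at 11.50 on both intestinal arrays and was at least 40.2-fold higher, but another probe for it did not show this (difference -0.38). Itgae, the integrin CD103, read 12.13 and 12.03 against 5.95, at least 60.2-fold higher. Batf3, a factor of cross-presenting dendritic cells, was 21.6-fold higher, and Zbtb46, a transcription factor of conventional dendritic cells, at least 8.61-fold higher. Flt3 and Xcr1 were not detected on any of the 3 arrays. B cell and plasma cell markers, from cells that carry MHC class II as well, are given below. The part of these cells in the MHC class II result was not tested, and fewer cells of a type cannot be told apart from less RNA per cell in these bulk samples.

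The other tissues also expressed class II genes. H2-Eb1 exceeded the mean of the 5 other tissues, with BMDM left out, by 2.77 (limma adjusted p = 3.80e-05) and Ciita by 3.68 (limma adjusted p = 1.25e-05), and both lay above the highest other tissue mean (14.59 and 9.78). H2-Ab1 exceeded that mean by 0.77, and the highest other tissue (15.09) lay above both intestinal arrays. BMDM was below the lowest other tissue mean for H2-Eb1 (9.42), H2-Aa (8.81), Cd74 (11.52) and H2-Ab1 (11.35). Across all members, 1339 (11.9%) were higher and 637 (5.65%) lower in the intestine than the mean of the other tissues by the same criteria.

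Of 15 genes known for intestinal macrophages, 13 were detected, and all 13 were higher in the intestine than in BMDM, 9 of them in the intestine alone; the list was chosen with results of these data known, so its direction is not independent evidence. Cx3cr1, the fractalkine receptor, read 13.59 and 13.47 against 10.46, 8.38-fold higher (limma adjusted p = 2.88e-05). Il10 read 9.56 and 9.69 against 5.97, not detected, at least 11-fold higher. Mmp13, a collagenase, read 13.71 and 13.83 against 9.76, 16.1-fold higher, and another probe for it stayed under 2-fold (difference 0.72). Of these 3, Cx3cr1 and Mmp13 were above the highest other tissue mean (9.64 and 9.65), and Il10 was below it (10.77).

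Tlr12, a receptor that senses profilin of parasites, was at least 14.2-fold higher, Kynu, an enzyme of tryptophan breakdown, at least 9.77-fold and Fgl2, a fibrinogen-like protein, at least 7.18-fold. Cd4, a coreceptor of helper T cells that macrophages of the gut also carry, read 8.67 and 8.46 against 4.70, at least 5.25-fold higher. Pgf, a placental growth factor, was at least 5.31-fold higher. Timd4, a receptor for dying cells, read 9.74 and 9.73 against 4.95, at least 11.8-fold higher, and did not differ detectably from the mean of the other tissues (-0.14, limma adjusted p = 0.53). Itgax, the integrin CD11c, was 9.61-fold higher. Cd163, a haemoglobin scavenger receptor, and Il22ra2, a soluble receptor for interleukin 22, were not detected.

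Pan-macrophage genes checked the cell label: of 16 on the array, 15 were detected in both groups. Ptprc, the leukocyte phosphatase CD45, read 7.61 and 7.52 in the intestine and 5.64, not detected, in BMDM. Of the 16, 9 did not pass, 5 were higher and 2 lower, with a median of -0.08. Adgre1, a surface receptor by which mouse macrophages are often stained, read 12.71 and 12.68 in the intestine and 12.71 in BMDM (difference -0.02, 95% interval -0.62 to 0.58), but another probe for it was lower in the intestine (difference -3.32). Fcgr1, an Fc receptor, read 10.91 and 10.98 against 11.70, and Cd14, a receptor for lipopolysaccharide, 12.46 and 12.43 against 13.06; each difference was under 2-fold. The higher ones were Ptprc, Mertk, a receptor for dying cells, Fcgr3, Aif1 and Tyrobp, from 2.15-fold (Tyrobp) to 2.74-fold (Mertk) where measured in both groups. The lower ones were Lyz2, lysozyme (2.02-fold, with probes that disagreed in sign), and Itgam, the integrin CD11b, which read 6.16 and 5.67, detected on 1 of the 2 arrays, against 7.46 (2.92-fold). The list's median turned positive with median scaling (0.58) and with brightness in the model (0.21), and 1 member was called higher with the spread taken from the peritoneal pair.

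Among 17 detected lineage regulators, 8 were higher and 2 lower. Irf4, a transcription factor of plasma cells and of a dendritic cell subset, read 9.25 and 9.07 against 4.58, at least 7.94-fold higher (limma adjusted p = 2.82e-05). Hes1, a target of Notch signalling, read 12.16 and 12.10 against 8.21, 15.2-fold higher. Klf4, Bhlhe40 and Irf8 were 4.56-fold, 4.08-fold and 3.30-fold higher. Irf8, which drives monocyte and dendritic cell development, read 11.07 and 11.06 against 9.34. Id2 and Id3, inhibitors of helix-loop-helix factors, were 2.71-fold and 2.96-fold lower.

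The other 7 did not pass. Spi1, which encodes PU.1, differed by 0.49 (95% interval -0.23 to 1.21), Cebpb by -0.20 (-0.64 to 0.25), Mitf by 0.00 (-0.61 to 0.61) and Irf5 by 0.45 (0.04 to 0.87). Pparg, a nuclear receptor of lipid metabolism, read 8.27 and 8.46 against 9.32, under 2-fold. Maf and Runx1 were 1.95-fold and 1.60-fold above BMDM, short of the 2-fold limit. Of the higher ones, Cebpa, Nr1h3 (the oxysterol receptor LXR alpha) and Zeb2 were 2.82-fold, 2.59-fold and 2.06-fold higher, and each of the 3 calls was lost with the spread taken from the peritoneal pair alone (limma adjusted p = 0.079, 0.0611 and 0.143). Another probe for Cebpa differed in sign (-0.44).

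**Figure D3:**
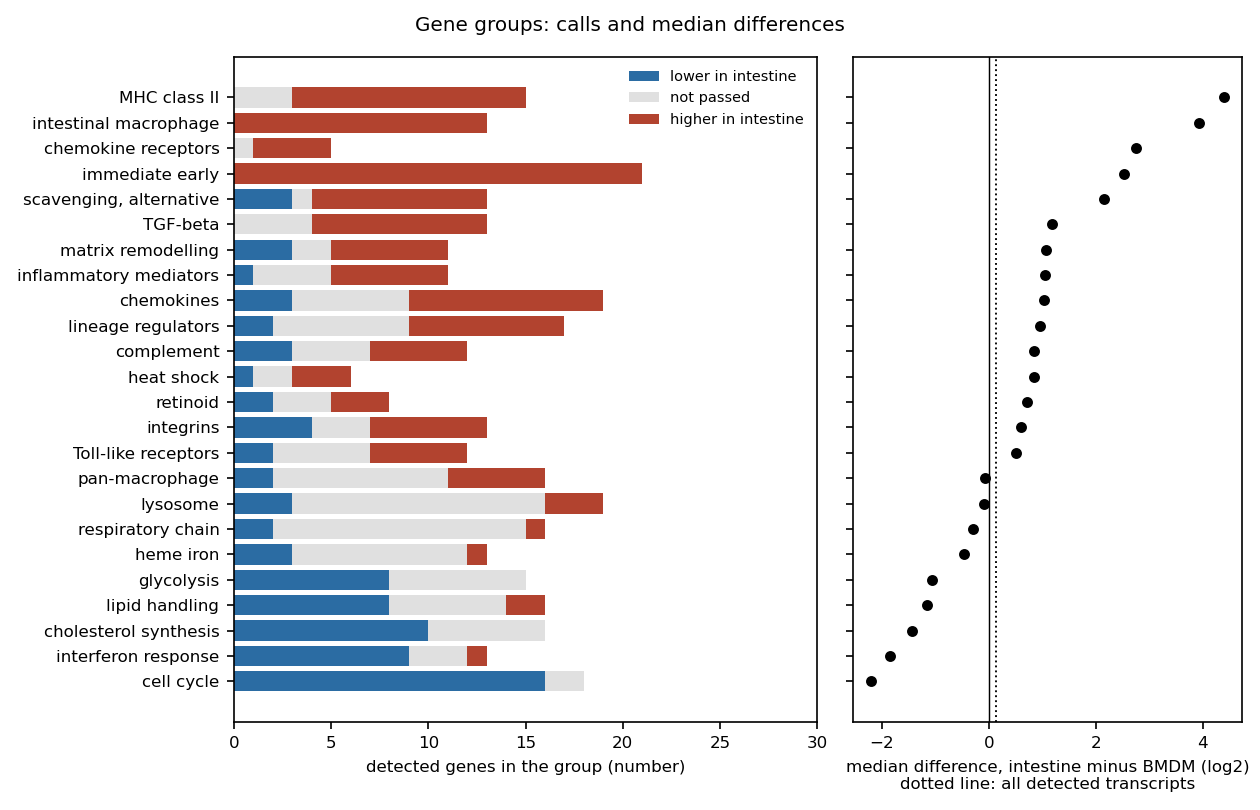
Left, the number of detected genes in each gene group that were higher (red), lower (blue) or not passed (grey) in small intestinal macrophages against BMDM. Right, the median log2 difference of each group, with a dotted line at the median of all members (0.13); MHC class II genes lie at 4.40 and cell cycle genes at -2.20.

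Of 12 detected complement genes, 5 were higher and 3 lower. C2, a protease of the classical pathway, read 10.96 on both intestinal arrays and 5.10, not detected, in BMDM, at least 27.6-fold higher (limma adjusted p = 5.75e-06). C6, a component of the membrane attack complex, was at least 20.8-fold higher. The receptor for C5a, C5ar1, went the other way: it read 4.71 and 4.92, not detected, against 8.71, at least 7.24-fold lower. The regulators Cr1l and Cd59a were at least 4.66-fold and 3.41-fold lower; another probe for Cr1l stayed under 2-fold (difference -0.86).

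Scavenging and alternative activation genes were mostly higher, 9 of 13 detected against 3 lower. Retnla, a resistin-like secreted protein, read 10.88 and 10.94 against 4.73, at least 26.7-fold higher (limma adjusted p = 4.00e-06). Lyve1, a hyaluronan receptor, and Cd209a, a lectin, were at least 6.45-fold and 6.65-fold higher, and neither was detected in BMDM. Marco, a scavenger receptor, read 5.00 and 4.70, not detected, against 8.72 and was at least 7.32-fold lower.

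Chemokine genes were higher in 10 of 19 detected members and lower in 3. Cxcl9, a ligand that draws activated T cells, read 13.05 and 12.92 against 6.74, 75.7-fold higher (limma adjusted p = 5.75e-06). Ccl24, an eosinophil attractant, and Ccl8, a monocyte attractant, were at least 15.5-fold and 14.7-fold higher. Cxcl1, a neutrophil attractant, read 12.97 and 13.06 against 10.20, 7.04-fold higher. For Cxcl1 the brighter peritoneal array read 1.23 above the dimmer one. The lower ones were the monocyte attractants Ccl2 and Ccl7 and the related Ccl9. Ccl2 read 9.55 and 9.64 against 12.47, 7.32-fold lower, and yet was 3.39 log2 units above the mean of the other tissues. With the spread from the peritoneal pair 6 chemokines were called higher. Ccl7 and Ccl9, which lie outside the naming rule and are named for completeness, were 5.33-fold and 4.97-fold lower.

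Of 5 detected chemokine receptors, 4 were higher, and Ccr2, a receptor of blood monocytes, missed the 2-fold limit (1.93-fold). Ccr7, which guides cells to lymph nodes, read 9.33 and 9.27 against 5.82, at least 8.75-fold higher. Cxcr4, a receptor of marrow retention, was 6.71-fold higher, and Cxcr3, a gene of the X chromosome, 2.08-fold; without intestinal replicate 1 the difference of Cxcr3 was 0.91, short of 2-fold.

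Inflammatory mediators were higher in 6 of 11 detected members, led by Il1b, and 1, Il1rn, was lower. Socs3, a feedback inhibitor of cytokine signalling, read 12.67 and 12.69 against 8.82, 14.5-fold higher (limma adjusted p = 8.67e-05). Tnfaip3, a brake on NF-kappa B, was 3.05-fold higher. Tnf read 10.60 and 10.90 against 10.66 and did not pass (difference 0.09, 95% interval -0.46 to 0.64), and Nlrp3, an inflammasome sensor, also did not (-0.09, -0.60 to 0.42).

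Toll-like receptor genes were higher in 5 of 12 detected members and lower in 2, beside 24.6% and 17.6% of all members. Tlr5, the flagellin receptor, read 8.04 and 8.12 against 5.97, not detected, at least 3.76-fold higher, and Tlr1 at least 3.57-fold. Tlr2 and Tlr4 did not pass (differences -0.38 and -0.38). The 2 lower members, Tlr8 and Tlr13, both lie on the X chromosome. The part of the sex-linked mismatch of the BMDM array in these 2 calls was not tested. Intestinal Tlr8 was also below the mean of the 5 other tissues (-2.47, limma adjusted p = 9.41e-05), whose means ranged from 6.55 to 8.23. With the spread from the peritoneal pair 3 members were called higher and 1 lower. Tlr8 was not detected in the intestine and was at least 2.79-fold lower, and Tlr13 was 2.26-fold lower.

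Every one of the 21 detected immediate-early genes, whose transcription is switched on fast by growth factors and stress, was higher in the intestine, with a median difference of 2.52; 6 of them were detected in the intestine alone. Egr1 read 13.75 and 13.70 against 8.93, 27.8-fold higher (limma adjusted p = 0.000107). Fosb read 12.26 and 12.01 against 7.70, 21.6-fold higher, and Fos 14.11 and 14.12 against 10.54, 11.9-fold. Nfkbiz, a nuclear regulator of NF-kappa B, was 16.9-fold and Klf2 10.1-fold higher. Heat shock genes were fewer: 3 of 6 detected were higher, Hspa1a at least 5.49-fold, Hspb1 at least 5.04-fold and Dnajb1 3.48-fold, and Hspd1 was 2.76-fold lower. Tissue origin, culture and preparation of the cells cannot be told apart in these genes.

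Genes of TGF-beta signalling, a pathway of epithelial and mucosal tolerance, were higher in 9 of 13 detected members, with a median of 1.17 (1.09 at the bounds). Tgfbr1, the type I receptor, read 13.45 and 13.39 against 11.37, 4.14-fold higher (limma adjusted p = 0.00119), and Smad3, a signal transducer, 3.53-fold. Itgav and Tgfbr2 were 4.86-fold and 2.69-fold higher on their brightest probes, but other probes for each differed in sign. Smad4 did not pass (difference 0.01, 95% interval -0.56 to 0.58). The count fell to 5 with the spread from the peritoneal pair and with quantile normalisation without background correction.

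Matrix-remodelling genes were higher in 6 of 11 detected members and lower in 3. Mmp2, a gelatinase, read 12.24 and 12.07 against 5.00, at least 63.2-fold higher (limma adjusted p = 3.00e-06), and the related Mmp9 read 12.83 on both arrays against 7.00, 56.7-fold higher. Both lay above the highest other tissue mean (7.45 and 12.37). Plau, the urokinase, read 9.15 and 9.25 against 12.52, 9.97-fold lower, and Mmp12, an elastase of macrophages, 7.49-fold lower.

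Integrins split, with 6 of 13 detected members higher and 4 lower. Itga9 was at least 14.5-fold higher and Itgb5 5.08-fold, beside Itgae and Itgax above. Of 8 detected retinoid genes, 3 were higher and 2 lower. Aldh1a1, which makes retinoic acid, was at least 3.38-fold higher, and Dhrs9, a retinol dehydrogenase, read 4.97 and 4.87, not detected, against 9.98, at least 17.5-fold lower (limma adjusted p = 1.07e-05). Rxrb, a retinoid X receptor, was 5.07-fold higher, with another probe under 2-fold (difference 0.87).

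Cell cycle genes were lower in the intestine in 16 of 18 detected members, with a median difference of -2.20; all 18 were detected on all 3 arrays. Cdk1, the kinase that starts mitosis, read 6.36 and 6.18 against 9.87, 12.1-fold lower (limma adjusted p = 2.23e-05). Mcm6, a subunit of the replicative helicase, read 7.91 and 7.45 against 11.17, 11.2-fold lower. Top2a, a topoisomerase of dividing cells, was 8.32-fold lower, Tk1, thymidine kinase, 6.04-fold, and Tyms, thymidylate synthase, 5.93-fold. The 2 members that did not pass, Cdc20 and Bub1b, were 1.78-fold and 1.81-fold below BMDM. The summed signal of the list was 4970 and 4660 on the intestinal arrays and 19400 on the BMDM array. The list's median was -1.46 with brightness in the model, -1.46 with median scaling and -1.55 with quantile normalisation without background correction. For Tk1 the call was lost with brightness in the model (difference -0.89, limma adjusted p = 0.151).

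Cholesterol synthesis genes were lower in 10 of 16 detected members, with a median of -1.43. Insig1, a sterol-regulated retention protein, read 5.02 and 5.42, not detected, against 8.68, at least 7.10-fold lower (limma adjusted p = 0.000271). Sqle, squalene epoxidase, read 8.64 and 8.63 against 11.78, 8.83-fold lower. Lss, Fdps and Hsd17b7, 3 further enzymes of the pathway, were 6.42-fold, 5.53-fold and 5.37-fold lower; another probe for Lss stayed under 2-fold (difference -0.48). Hmgcs1, an early enzyme, did not differ detectably (0.01, 95% interval -0.45 to 0.48), and Srebf2, a sterol-regulated transcription factor, did not pass.

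**Figure D4:**
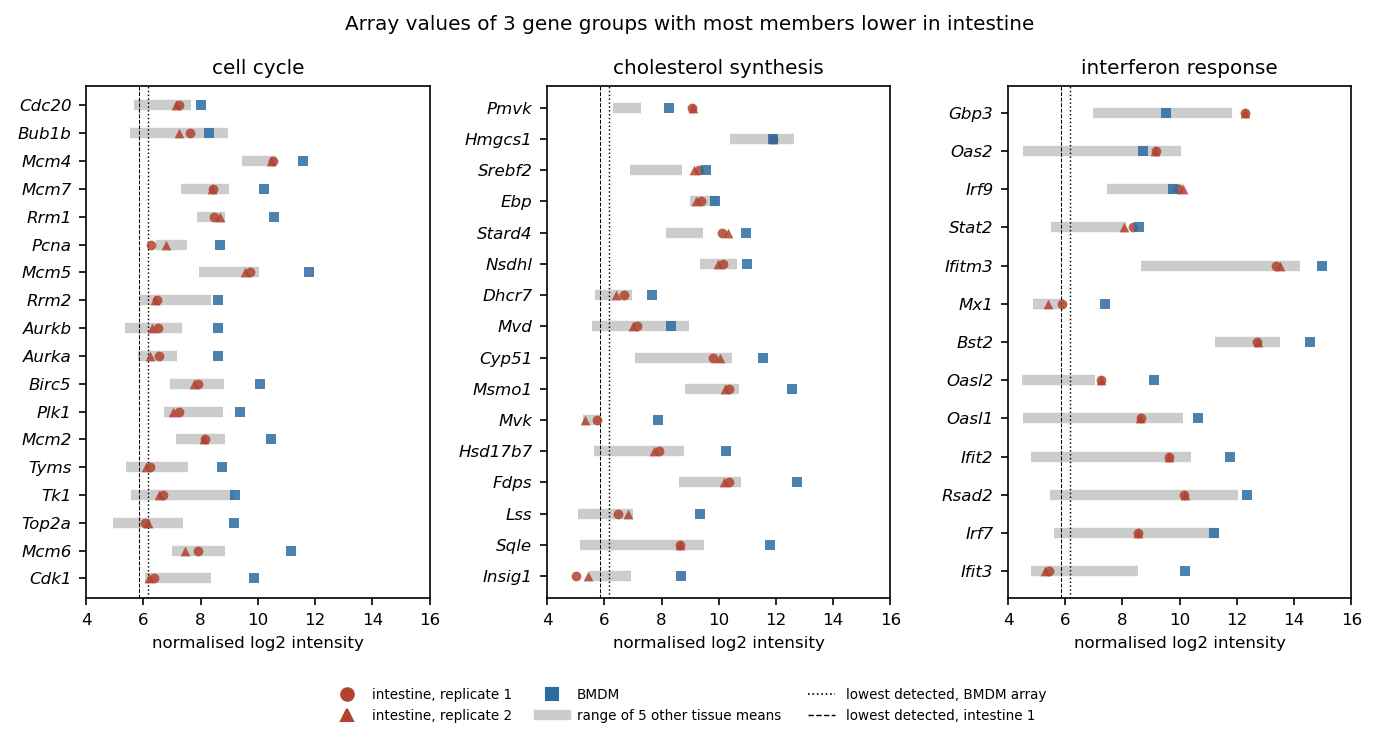
Normalised log2 intensity (x axis) of cell cycle, cholesterol synthesis and interferon response genes on the 2 intestinal arrays (red) and the BMDM array (blue); grey bars span the means of the 5 other tissues. BMDM lay above both intestinal arrays in all 18 cell cycle genes, and Gbp3 was the 1 interferon gene called higher in the intestine.

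Lipid-handling genes were lower in 8 of 16 detected members and higher in 2. Lpl, lipoprotein lipase, read 9.63 and 9.66 against 14.32, 25.5-fold lower (limma adjusted p = 5.75e-06). The desaturase Scd2 was 6.90-fold, the lipid-droplet protein Plin2 6.57-fold and the fatty acid synthase Fasn 5.26-fold lower. Apoe, an apolipoprotein, read 14.80 and 14.82 against 12.19 and was 6.13-fold higher.

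Glycolysis genes were lower in 8 of 15 detected members, with a median of -1.06. Pfkp, an isoform of phosphofructokinase, read 6.22 and 5.96 against 10.42, 20-fold lower (limma adjusted p = 2.00e-05). Aldoc, Tpi1, Hk1 and Pkm were between 2.53-fold (Pkm) and 3.55-fold (Aldoc) lower. With median scaling 3 members were lower and 3 higher. Of 16 detected respiratory chain genes, 13 did not pass, 1 was higher and 2 were lower.

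Interferon-stimulated genes were lower in 9 of 13 detected members and higher in 1, with a median of -1.84. Ifit3, an antiviral RNA-binding protein whose promoter is printed above, read 5.42 and 5.31, not detected, against 10.18, at least 20.1-fold lower (limma adjusted p = 5.75e-06). Irf7, a transcription factor that amplifies interferon production, read 8.53 on both arrays against 11.21, 6.41-fold lower. Rsad2, viperin, read 10.16 and 10.17 against 12.35, 4.53-fold lower, and Ifit2 4.34-fold. Gbp3, a guanylate-binding protein, went the other way at 12.30 and 12.29 against 9.52, 6.86-fold higher, like Gbp2b above. Stat2, Irf9 and Oas2 did not pass.

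Of 19 detected lysosomal genes, 13 did not pass, 3 were higher and 3 lower. Gpnmb, a glycoprotein of lysosome-rich cells, read 11.57 and 11.46 against 15.08, 11.9-fold lower (limma adjusted p = 0.000116), and Ctsd, cathepsin D, 11.24 and 11.17 against 14.12, 7.58-fold lower. Ctsh, cathepsin H, was 6.59-fold higher. Of 13 detected iron and heme genes, 1 was higher and 3 lower. Trf, transferrin, was 6.86-fold higher, and Hmox1, heme oxygenase, and Fth1, ferritin heavy chain, were 3.11-fold and 2.56-fold lower. The 3 lower calls were lost with median scaling.

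Markers of other gut and blood cells were measured to see what else the intestinal preparation held. Of 15 enterocyte markers on the array, 5 were detected, with a summed signal of 694 and 638 on the intestinal arrays and 275 on the BMDM array, and Fabp1, Fabp2, Epcam and Krt19 were not detected. The brightest, Apoa1, an apolipoprotein, read 8.09 and 7.97 against 7.24 and did not pass. Vil1, villin, read 7.51 and 7.19 against 4.93, and Krt8, a keratin, 6.86 and 6.95 against 4.59. Goblet, Paneth and endocrine markers summed to 527 and 492 against 397. Defa24, a Paneth cell defensin, read 7.24 and 7.07 against 4.93, and Tff3, a goblet cell peptide, 6.42 and 6.15 against 4.54, while Muc2, the main goblet mucin, was not detected. These epithelial calls (3 enterocyte markers and 2 of the others) were all lost with quantile normalisation without background correction.

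B and plasma cell markers were higher in 3 of 4 detected members, with a summed signal of 2780 and 2750 against 244. Cd79b, a chain of the B cell receptor, read 10.88 and 10.91 against 7.25, Mzb1 8.80 and 8.68 against 4.77, and Tnfrsf17, the receptor BCMA, 8.61 and 8.59 against 4.99. Cd79a, Ms4a1, Pax5 and Jchain, which define these cells, were not detected. T and NK cell markers summed to 2900 and 3180 against 4150, with Klrd1 and Thy1 higher and Il7r, the interleukin 7 receptor, 24.9-fold lower. Of 11 on the array, 5 and 6 were detected on the intestinal arrays and 2 on the BMDM array. Cd3d, Cd3g and Cd8b1 were among the detected markers and did not pass. Cd3e, Cd247, Gzma, Gzmb and Nkg7 were not detected.

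Stromal markers were also present. Of 12 fibroblast and muscle markers, 4 were detected and all 4 were higher, with a summed signal of 3160 and 3020 against 343. Dcn, decorin, read 9.82 and 9.70 against 4.62, and Acta2, smooth muscle actin, 10.91 and 10.89 against 8.02, while Col1a1, Col1a2, Col3a1 and Des were not detected. Of 13 endothelial markers, 9 were detected and 6 were higher, with a summed signal of 6800 and 7400 against 848. All 9 were detected on both intestinal arrays and 5 on the BMDM array. Pecam1, an adhesion molecule that leukocytes also carry, read 12.20 and 12.37 against 5.08, at least 69.0-fold higher, and Esam 9.71 and 9.73 against 4.73. The other detected markers were Kdr, Flt1, Vwf, Eng, Cldn5, Egfl7 and Plvap, while Cdh5, Tek, Tie1 and Emcn were not detected.

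Few granulocyte, mast cell, glial and red cell markers were detected. Kit was the 1 mast cell marker of 12 detected (9.60 and 9.57 against 4.68), and Prg2 the 1 eosinophil marker of 6 (6.81 and 6.68 against 5.49). Neutrophil and monocyte markers summed to 2520 and 2480 against 675, with Retnlg, Plac8 and Csf3r higher and S100a8 lower, and S100a9, Mpo and Elane not detected. Hba-a1, a haemoglobin chain of red cells, read 10.22 and 10.10 against 4.75, at least 15.9-fold higher, below the mean of the other tissues. Uchl1, a neuronal hydrolase, was the 1 glial or neuronal marker detected, in BMDM alone (8.65). The part of these cells in the differences above was not tested.

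**Figure D5:**
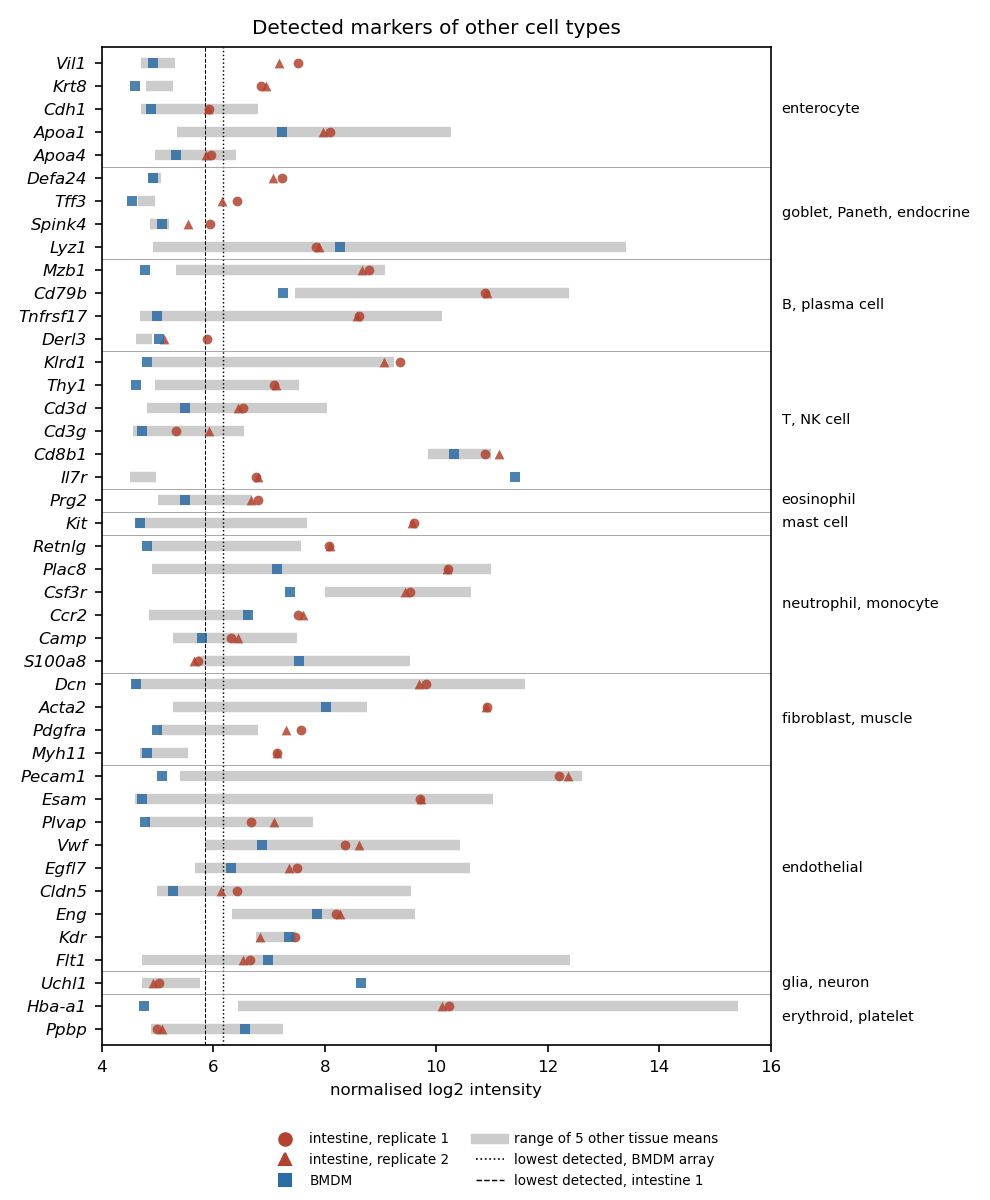
Normalised log2 intensity (x axis) of every detected marker of other cell types on the 2 intestinal arrays (red) and the BMDM array (blue), grouped by cell type; grey bars span the means of the 5 other tissues and vertical lines mark the lowest detected levels. Pecam1, Cd79b, Acta2 and Hba-a1 lie above 10 in the intestine, and the highest enterocyte marker, Apoa1, reads 8.09 and 7.97.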

How the data were processed

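RNA of 10 samples in 7 groups was measured on Illumina bead arrays, 1 array a sample. Per the file headers, the deposited table gives 46632 probes with their signal and their detection p-value on every array. The deposited signals are linear intensity without normalisation between arrays; the sources used here do not name the software. The authors' series values, also deposited as intensity, appear quantile normalised and served as an alternative. Of the per-sample columns, 0 went unused.

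Background was estimated through the detection p-values and removed (nec of limma 3.58.1, R 4.3.3, offset 16), followed by quantile normalisation and log2. Of the probes, 29976 had 1 gene symbol, 10 several and 16646 none in the platform annotation; symbols were updated through a gene table (GRCm38.p6). The probe with the highest mean stood for a gene; among 790 called genes with several probes, 159 had probes that differed in sign. The 12845 transcripts detected on any array were fitted in limma with 7 group means (3 residual and 4.02 prior degrees of freedom), and p-values were adjusted over all of them by Benjamini and Hochberg's method. Calls needed an adjusted p under 0.05 and a 2-fold difference of the normalised values, also where a group was not detected. A group not detected was set at the lowest detected value of each array (5.85 to 6.17 on the arrays compared), which gives the "at least" folds. The number of arrays limits the precision.

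The text names the 10 genes with the largest called differences each way, up to 5 called members a list, any lineage regulator, pan-macrophage or intestinal macrophage gene, and markers of other cells; members that did not pass, sex-linked genes, and list members beyond the first 5 were named after their values were seen. The members and gene lists were chosen with earlier results of these data known. Promoters are from RefSeq (GRCm38.p6).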

Additional observations from a re-analysis of the deposited data

How the results depend on the processing

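No paired analysis was possible because the intestinal and BMDM groups share 1 replicate number only and the labels tie no samples together. Against the 2774 higher and 1989 lower calls, fewer were made with quantile normalisation without background correction (1415 higher, 1093 lower), with the authors' series values (1365 and 1055) and with the spread taken from the peritoneal pair (1613 and 1094), and median scaling moved the split (4297 and 872), since it moved the median difference of all members from 0.13 to 0.81. Under that scaling the medians of the pan-macrophage (0.58), heme and iron (0.20), lysosome (0.57) and respiratory chain (0.33) lists turned positive but lay below the shift of all members. Leaving out 1 array of a pair gave 2586 to 2825 higher and 1832 to 2034 lower calls. The other alternatives (offset 50, the mean of a gene's detected probes, no or a stricter detection filter, brightness as a block, the 3 arrays alone, adjusted p alone, and, chosen after seeing the data, no transcripts of the X and Y chromosomes) stayed within 1.5 times, between 2073 and 3721 higher and 1601 and 2899 lower. With the mean of detected probes 2 named genes changed direction, Ctsa (-0.22) and Lyz2 (0.58); the cause was not tested. Of 167 called named genes, 119 kept their call under all 18 alternatives. Calls of Lyz2 and Rarg were lost without intestinal replicate 1 and without intestinal replicate 2 (limma adjusted p = 0.106 and 0.0734 for Lyz2, 0.0898 and 0.0936 for Rarg), and so were those of Ctsa (0.0552 and 0.0651). Levels near the detection floor, where 1534 of the higher calls had their BMDM value, give only a lower bound on a difference.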
